A study of Mus musculus with 12 samples.

Results

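The giant and myosin-binding genes of the sarcomere were followed through 6 histone modifications in the mouse cell line C2C12, before and after the cells fuse into muscle fibres. The 7 genes were picked by name from the 22208 protein-coding genes measured: Ttn and Neb, which encode titin and nebulin, Mybpc1, Mybpc2 and Mybph of the myosin-binding protein family, and Myom1 and Myom2, the myomesins. The study compared C2C12 myoblasts, taken while nearly confluent in medium with 10% serum, with C2C12 myotubes, taken 5 days after serum was withdrawn and separated from unfused cells by a light trypsin treatment, which may leave some unfused cells behind. Both states came from this 1 line (strain C3H, passages 15 to 18), and neither carried any transgene, deletion or drug in the labels. In each state 1 chromatin immunoprecipitation library was sequenced for each of H3K4me3, H3K4me2, H3K4me1, H3K27ac, H3K36me3 and H3K27me3, which makes 12 libraries, with no replicate and no input library analysed here. A difference therefore compares 2 libraries, has no replicate check and carries no p-value. The intervals given below are exact 95% intervals that cover counting error only, and not the spread between cultures or immunoprecipitations. They also do not allow for reads that come from the same amplified molecule, which are not independent.

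The sarcomere is the contractile unit of striated muscle. Titin is a molecular spring that spans from the Z-disc to the M-band, and nebulin runs along the thin filament of skeletal muscle. Myosin-binding protein C sits on the thick filament, in a slow skeletal form made from Mybpc1 and a fast skeletal form made from Mybpc2, and Mybph encodes a smaller relative of it. The myomesins cross-link thick filaments at the M-band. H3K4me3 marks active promoters, H3K4me1 and H3K4me2 mark promoters and enhancers, H3K27ac marks active forms of both, H3K36me3 is laid down over the bodies of transcribed genes, and H3K27me3 is the mark of Polycomb repression.

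The libraries held between 1857191 reads (H3K27ac, myoblasts) and 7026942 reads (H3K36me3, myoblasts) on the autosomes and the X chromosome. Levels are given as fold over the genome mean, which is the number of reads in a window divided by the number that the library's average density would place there, so levels are per length and can be compared between genes. Marker promoters mostly moved as the names of the cells say, but the markers were listed with earlier results of these data known. Of 8 myotube markers, including Myog, Ckm and Acta1, 6 carried more H3K4me3 in myotubes and none less, by a limit of 2-fold. Of 8 myoblast and proliferation markers 7 carried less and none more, and 6 housekeeping promoters moved by less than 2-fold. Over all promoters tested, 3.86% were higher past this limit and 8.01% lower. Of 12 markers of fat, bone, nerve, vessel and heart cells, 11 had too few H3K4me3 reads for a comparison and the other one did not differ by 2-fold, and their median level was 1.15-fold in myoblasts and 0.970-fold in myotubes. Over all promoters with 20 or more reads in the 2 libraries, the median myotube-to-myoblast ratio was 0.869 for H3K4me3, 0.590 for H3K4me2, 0.861 for H3K4me1, 0.577 for H3K27ac, 0.928 for H3K36me3 and 0.754 for H3K27me3, so a ratio of 1 for the genes below lies above the middle of all promoters.

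The sequence just upstream of the start sites is shown for 5 of the genes, Ttn, Neb, Mybph and Myom2 because their promoters carried the highest H3K4me3 in myotubes, and Mybpc1 because its marks were the least like those of Mybph. Each run is the 200 bases before the first base of the most upstream annotated start at most 3 kb from the start used for the reads, 5′ to 3′ in the direction of the gene, read from the mouse genome NCBIM37 (mm9). For Ttn, Mybpc1, Neb and Myom2 that first base lies 92, 127, 628 and 2537 bases upstream of the start used. Capitals mark matches on either strand to the E-box (CANNTG, bound by MyoD and myogenin among others), the MEF2 motif, the CArG box (bound by SRF), the MCAT motif (CATTCC, bound by TEAD factors) and TATAAA.
Ttn (chr2:76820605-76820804, minus strand): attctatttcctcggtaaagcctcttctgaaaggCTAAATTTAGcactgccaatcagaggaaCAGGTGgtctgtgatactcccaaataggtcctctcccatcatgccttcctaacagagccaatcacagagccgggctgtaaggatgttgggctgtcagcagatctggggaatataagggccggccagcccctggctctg
Neb (chr2:52191283-52191482, minus strand): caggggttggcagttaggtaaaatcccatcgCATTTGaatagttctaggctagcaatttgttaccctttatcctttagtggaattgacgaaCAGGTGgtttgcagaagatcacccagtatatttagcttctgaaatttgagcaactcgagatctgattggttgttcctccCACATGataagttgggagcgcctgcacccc
Mybpc1 (chr10:88067898-88068097, minus strand): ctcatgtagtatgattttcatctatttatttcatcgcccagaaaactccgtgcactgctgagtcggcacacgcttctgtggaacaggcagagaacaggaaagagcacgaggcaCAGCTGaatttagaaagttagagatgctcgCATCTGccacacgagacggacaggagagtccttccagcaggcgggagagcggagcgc
Mybph (chr1:136089825-136090024, plus strand): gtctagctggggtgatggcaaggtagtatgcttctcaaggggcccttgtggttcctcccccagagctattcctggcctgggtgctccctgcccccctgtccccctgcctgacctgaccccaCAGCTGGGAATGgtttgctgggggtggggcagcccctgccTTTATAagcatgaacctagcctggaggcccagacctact
Myom2 (chr8:15057453-15057652, plus strand): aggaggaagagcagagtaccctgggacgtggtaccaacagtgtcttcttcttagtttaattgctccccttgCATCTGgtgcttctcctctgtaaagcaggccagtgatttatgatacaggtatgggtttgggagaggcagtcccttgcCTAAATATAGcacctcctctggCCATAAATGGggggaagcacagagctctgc
The 250 bases upstream of all 7 genes held an E-box, as did 63.5% of 22203 protein-coding promoters read in the same way. A MEF2 motif stood in 2 of the 7, Ttn and Myom2, against 2.91% of all promoters, and a CArG box in 2 of the 7, Myom1 and Myom2, against 1.34%. In Myom2 they began at positions -52 and -30, counted from the start with -1 as the base before it. The MCAT motif was present in 2 of the 7, Mybpc2 and Mybph, against 11.3% of all, and in Mybph it lay directly beside the E-box of the CAGCTG form, which begins at -79. E-boxes of this form were in 2 of the 7, Mybpc1 and Mybph, against 11.8% of all, and those of the form CAGGTG or its complement in 3 of the 7, Ttn, Neb and Mybpc2, against 17.0%. TATAAA was found in Mybph alone, against 12.3% of all promoters. GGGCGG, the letters of an SP1 site, stood in 1 of the 7, Mybpc2, against 39.5% of all. The number of CpG dinucleotides in the 250 bases had a median of 4 over the 7 promoters and 8 over all promoters. It ran from 0 in Mybph to 8 in Mybpc2 and 11 in Mybpc1, which is above the median of all. These are matches of letters and not measured binding sites.

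All 7 promoters carried more H3K4me3 reads in the myotube library than in the myoblast library. Reads were counted within 1 kb on each side of the start, and a gene was called higher or lower when the ratio, scaled by total reads, passed 2-fold and the 2 libraries held 20 or more reads between them. By this rule 6 of the 7 were called higher and none lower, where 3.86% of all 11442 promoters tested were called higher and 8.01% lower. The 6 passed the read minimum almost wholly through the myotube library, so the count says little by itself and the values of all 7 follow. In libraries of mixed cells, a larger share of cells that carry a mark and more of the mark per cell cannot be told apart.

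Ttn lies on the minus strand at chr2:76542037-76820604, and around its start at 76820512 15 H3K4me3 reads were found in myoblasts and 222 in myotubes, which is 6.92-fold (3.87 to 11.4) and 86.1-fold (75.2 to 98.2) over the genome mean. This was the highest H3K4me3 level of the 7 in both states, although its myoblast interval overlapped those of Mybph and Myom2, and the ratio was 12.4 (7.39 to 22.6). Neb lies on the same chromosome and strand at chr2:51992167-52194318, and around its start at 52190654 there was 1 read in myoblasts and 161 in myotubes, or 0.461-fold and 62.5-fold (53.2 to 72.9). The myoblast level could not be told from the genome mean, and the ratio of 135 had an interval of 24.0 to 5382.

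Among the myosin-binding protein genes, Mybph stood apart from its relatives. Its promoter (gene at chr1:136090025-136097808, plus strand) held 9 H3K4me3 reads in myoblasts and 166 in myotubes, levels of 4.15-fold and 64.4-fold with a ratio of 15.5 (7.98 to 34.5). Mybpc1 (chr10:87981024-88067897, minus strand, start at 88067770) held 2 and 20 reads, and its myotube level of 7.76-fold (4.74 to 11.98) was far under those of Ttn, Neb and Mybph, with a ratio of 8.41 (2.04 to 74.2). Mybpc2 (chr7:51757088-51780039, minus strand, start at 51780004) had no myoblast read and 10 myotube reads, a level of 3.88-fold (1.86 to 7.13), which is at least 2.80-fold higher when the count of 0 is set to 3 reads. It had too few reads to be called. The slow and fast myosin-binding protein C genes had the lowest H3K4me3 of the 7 in myotubes, and their intervals overlapped.

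The myomesin genes differed from each other in level but not in direction. Myom1 (chr17:71368861-71476196, plus strand, start at 71368908) had 2 H3K4me3 reads in myoblasts and 34 in myotubes, 0.922-fold and 13.2-fold (9.13 to 18.4), with a ratio of 14.3 (3.67 to 123). A noncoding gene, Gm16724, lies in the same window on the same strand, so the reads cannot be assigned to one of them. Myom2 (chr8:15057653-15133541, plus strand, start at 15060190) had 8 and 151 reads, 3.69-fold and 58.6-fold (49.6 to 68.7), with a ratio of 15.9 (7.85 to 37.4). In order of the myotube level, Ttn came first, and Mybph, Neb and Myom2 followed with overlapping intervals. Myom1, Mybpc1 and Mybpc2 came last, each overlapping the next. The overlap of Myom2 with Mybph and Neb holds at the start used. At its most upstream annotated start the myotube level was 31.8-fold (25.3 to 39.5), under both of theirs.

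**Figure D1:**
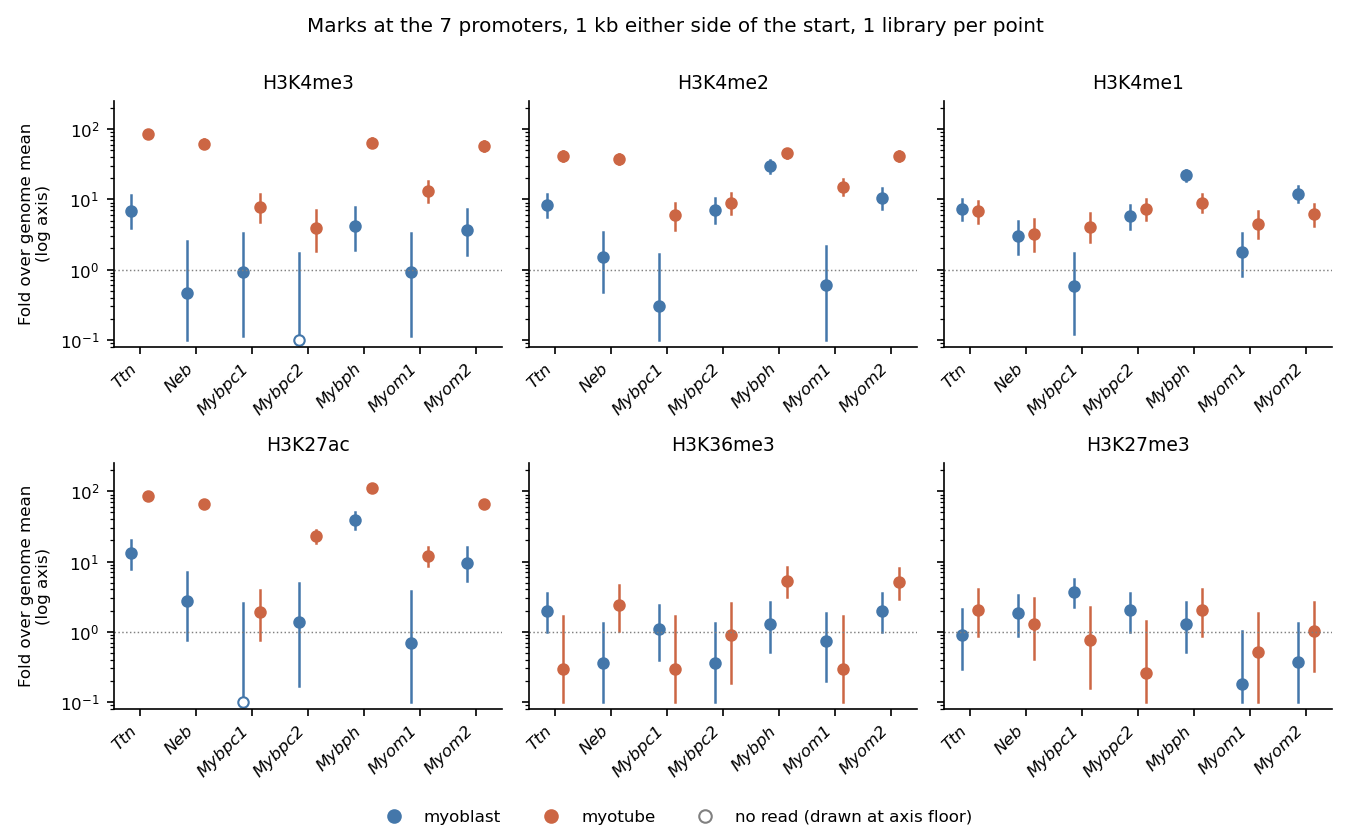
Fold over the genome mean (log axis) of 6 histone marks within 1 kb of the start of each gene, in the myoblast and the myotube library, with lines for the exact 95% Poisson interval, cut off at 0.1. An open point has no read and is drawn at the axis floor. H3K4me3 was at most 6.92-fold in myoblasts and between 3.88-fold and 86.1-fold in myotubes, while H3K36me3 and H3K27me3 were at most 5.34-fold.

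The H3K27ac level in myoblasts differed between the genes. Of the 6 promoters with enough reads all 6 were called higher in myotubes, where 5.96% of all promoters tested were, and here too most of the reads came from myotubes. The Mybph promoter was already acetylated in myoblasts, with 56 reads against 414 in myotubes, levels of 38.5-fold (29.1 to 50.04) and 112-fold (102 to 123), and its ratio of 2.91 (2.20 to 3.92) was the smallest of those called. Ttn had 19 and 319 reads, 13.1-fold and 86.3-fold, and Myom2 had 14 and 242, 9.63-fold and 65.5-fold, with ratios of 6.60 (4.16 to 11.1) and 6.80 (3.97 to 12.6). These 3 genes were also the ones with the most H3K4me3 in myoblasts. For Myom2 this depended on the start used. At its most upstream annotated start there were 2 myoblast H3K27ac reads (1.38-fold, 0.167 to 4.97) and 2 myoblast H3K4me3 reads (0.922-fold). The other 4 genes had myoblast H3K27ac intervals that included the genome mean. That of Neb (0.750 to 7.05) overlapped that of Myom2 at the start used (5.27 to 16.2), so the genes did not form separate groups. Neb rose from 4 to 247 reads with a ratio of 24.3 (9.37 to 89.9), and Myom1 from 1 to 44 with a ratio of 17.3 (2.95 to 699). Mybpc2 went from 2 to 84 reads, 1.38-fold to 22.7-fold (18.1 to 28.1), a ratio of 16.5 (4.43 to 139), so that its H3K27ac was called higher although its H3K4me3 had too few reads for a call. Mybpc1 held no H3K27ac read in myoblasts and 7 in myotubes, 1.89-fold (0.762 to 3.90), which at this depth cannot be told from the genome mean in either library.

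H3K4me2 was called higher at 5 of the 7 promoters, against 2.53% of the 13304 promoters tested. Of these, Neb, Myom1 and Mybpc1 passed the read minimum through the myotube library alone, so the count says little by itself. Neb went from 5 to 140 reads with a ratio of 25.3 (10.6 to 79.0), Myom1 from 2 to 56 with a ratio of 25.3 (6.68 to 214) and Mybpc1 from 1 to 22 with a ratio of 19.9 (3.21 to 820). Ttn had 28 and 155 reads and Myom2 35 and 156, with ratios of 5.00 (3.33 to 7.76) and 4.02 (2.77 to 5.98). The pair not called had H3K4me2 in both states: Mybph with 99 and 168 reads, 29.5-fold and 45.2-fold, and Mybpc2 with 24 and 33 reads, 7.15-fold and 8.87-fold. The direction at these last promoters depended on the scaling, since their ratios of 1.53 and 1.24 became 0.877 and 0.711 when libraries were scaled by windows without a peak and 2.55 and 2.06 when scaled by the median promoter.

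H3K4me1 did not move in one direction. Mybph lost it at the start, from 111 reads to 44, 21.9-fold (18.0 to 26.4) to 8.97-fold (6.52 to 12.04). Its ratio of 0.409 (0.282 to 0.585) was the only one called lower, where 20.4% of all promoters tested were. Myom2 went from 61 to 30 reads, a ratio of 0.508 (0.317 to 0.799) that falls just short of the limit. Mybpc1, with 3 and 20 reads, and Myom1, with 9 and 22, were called higher, where 9.96% of all promoters tested were. Their ratios were 6.88 (2.04 to 36.2) and 2.52 (1.12 to 6.23), and both passed the read minimum through the myotube library alone. At Ttn, Neb and Mybpc2 the counts were 37 and 33, 15 and 16, and 29 and 36, and the intervals of the ratios included 1.

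**Figure D2:**
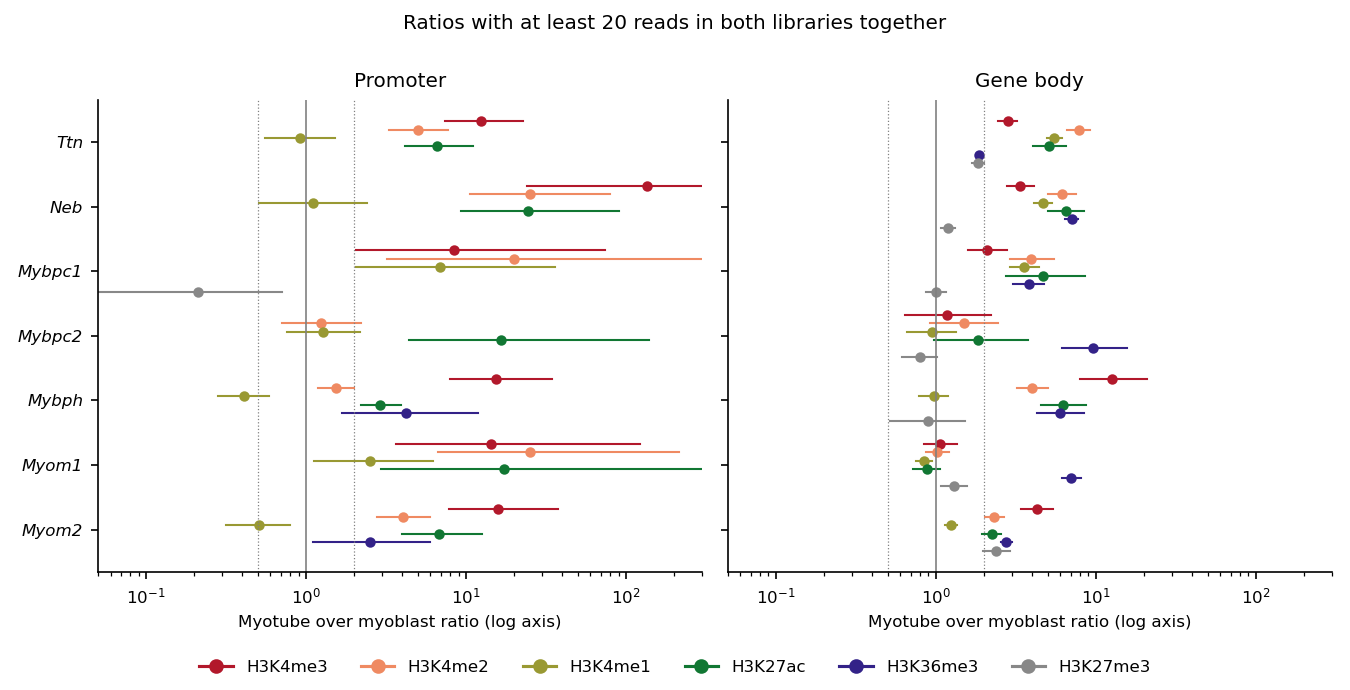
Myotube-to-myoblast ratio (log axis) of each mark at the promoter (left) and over the gene body (right) with its exact 95% interval, for values that rest on 20 or more reads. Dotted lines stand at 0.5 and 2, and intervals that run off the axis are cut there. H3K4me3 and H3K27ac lie right of 2 at every promoter drawn, and H3K36me3 lies right of 2 over every body but that of Ttn. The Ttn ratio of 1.85 became 2.19 under scaling by windows without a peak and 1.79 under scaling by the median body ratio.

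Seen over 10 kb on each side of the start, the gain in myotubes was broad at some genes and narrow at others. In windows of 500 bases, H3K4me3 reached 138-fold between 1000 and 1500 bases downstream of the Ttn start, 133-fold between 500 and 1000 bases downstream at Mybph and 107-fold in the 500 bases upstream of the Neb start. Of 40 windows, 24 at Ttn, 24 at Mybph and 20 at Myom2 reached 5-fold in myotubes, against 5, 3 and 5 in myoblasts, while Neb had 13 such windows, Mybpc1 8, Myom1 5 and Mybpc2 3. In myoblasts Mybpc1 had 1 and the other three none. The H3K4me3 peak that the authors called in myotubes was 9885 bases long at Mybph, running from -1198 to 8686 bases relative to the start and so past the end of this gene of 7784 bases. It was 7812 bases long at Myom2, 5627 at Ttn, 4680 at Neb, 2338 at Myom1, 1769 at Mybpc1 and 602 at Mybpc2. The H3K4me1 of Mybph changed shape, and its highest window was 37.1-fold at 1000 to 1500 bases downstream in myoblasts and 17.1-fold at 3000 to 3500 bases downstream in myotubes. At Ttn the highest H3K4me1 window moved from the 500 bases before the start, at 12.6-fold, to 2500 to 2000 bases upstream, at 22.0-fold.

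**Figure D3:**
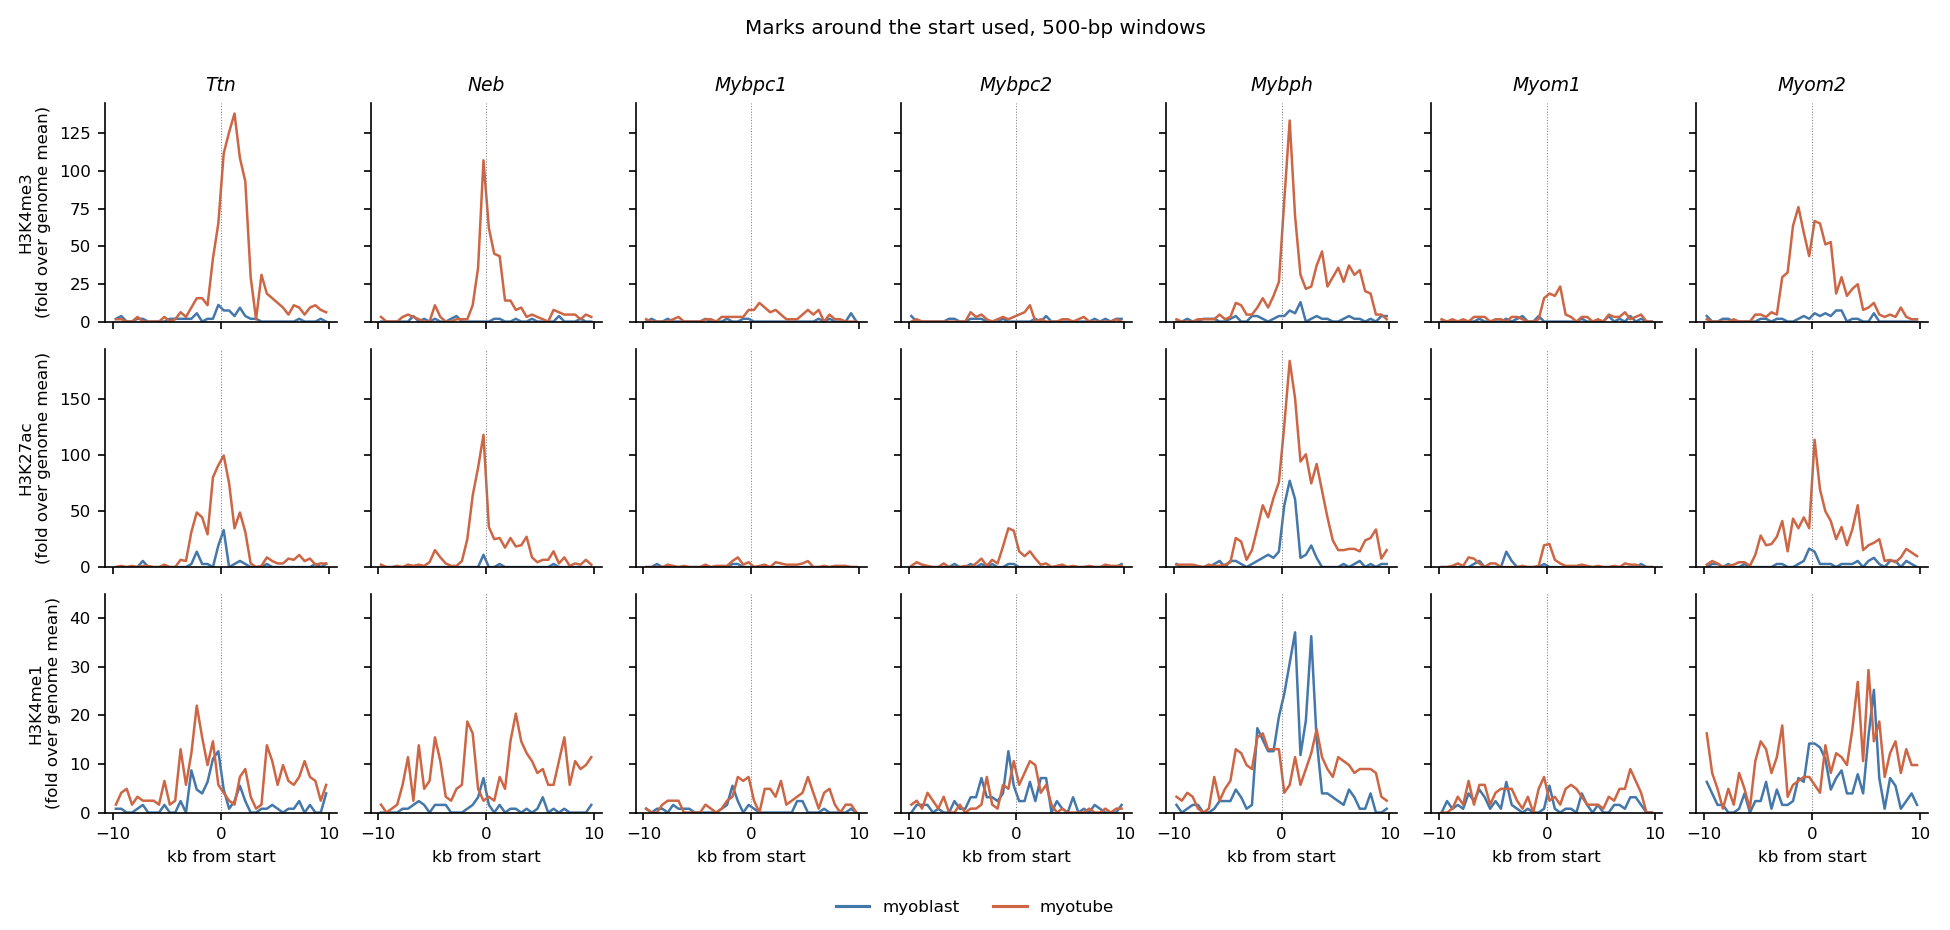
H3K4me3 (top), H3K27ac (middle) and H3K4me1 (bottom) as fold over the genome mean in 500-base windows within 10 kb of the start used for each gene, with the direction of the gene to the right, in myoblasts and myotubes. The H3K4me3 of Mybph and Myom2 in myotubes spreads over several kb, Mybpc1 and Mybpc2 stay low, and the myoblast H3K4me1 of Mybph, up to 37.1-fold, lies under the later H3K4me3.

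Of the 44 annotated starts of the 7 genes, 28 lay over 5 kb from the one used. None of these carried H3K4me3 above 2.72-fold in myotubes or 2.77-fold in myoblasts. The start used was chosen for the most H3K4me3 reads in both libraries together, so no other start could exceed it in that sum. At Neb, the start used is that of transcript Neb-001 and lies 3664 bases downstream of the most upstream annotated one, which had 3 and 6 H3K4me3 reads. At Myom2, the start with the most reads is that of a retained-intron transcript, 2537 bases downstream of the start of Myom2-001, and the latter held 2 and 82 reads with a ratio of 34.5 (9.25 to 290). The H3K4me1 counts at Myom2 depended on this choice, with 61 and 30 reads at the former and 13 and 50 at the latter. Its myoblast H3K27ac and H3K4me2 did too, with 14 and 35 reads at the former and 2 and 4 at the latter. The H3K36me3 reads in myoblasts and myotubes were 11 and 17 at the former and 5 and 4 at the latter. The ratios at the start of Myom2-001 were 22.4 (6.07 to 187) for H3K27ac and 20.5 (7.75 to 77.0) for H3K4me2.

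In the authors' peak lists, a myotube H3K4me3 peak overlapped the promoter window of all 7 genes, although that of Mybpc2 did not cover the start itself, and a myoblast H3K4me3 peak was listed at the promoter of Ttn alone, with a score of 72.4 where the lowest score in any list is 50. For H3K27ac, 6 of 7 had a myotube peak, the exception being Mybpc1. The share of all promoters with such peaks was not counted, so these counts have no background beside them. The H3K4me3 lists held 17912 peaks in myotubes and 12583 in myoblasts, and the myotube H3K27ac list held 47019. The myoblast lists of H3K27ac and H3K27me3 need care, because the names of the lists disagree with the samples they were deposited with. The 34662 peaks deposited with the H3K27me3 sample held a median of 21.8-fold H3K27ac reads and 0.713-fold H3K27me3 reads, and the 17994 peaks deposited with the H3K27ac sample a median of 0-fold and 6.29-fold. The reads in each list thus go with the mark of the other sample. As deposited, 3 of the genes (Ttn, Mybph and Myom2) had a myoblast H3K27me3 peak and none an H3K27ac peak, and with the lists exchanged the counts change places. In that order, the myoblast reads at these promoters were 13.1-fold, 38.5-fold and 9.63-fold for H3K27ac. For H3K27me3 they were 0.911-fold, 1.28-fold and 0.365-fold. The read counts above do not use the lists.

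Over gene bodies, counted from 1 kb downstream of the 5′ end to the 3′ end, H3K36me3 was higher in myotubes at all 7 genes. It passed 2-fold at 6 of 7, where 7.67% of 15493 bodies were called higher. The exception was Ttn, with 5073 reads or 6.65-fold (6.47 to 6.83) in myoblasts and 5764 reads or 12.3-fold (12.001 to 12.639) in myotubes, a ratio of 1.85 (1.78 to 1.92). Under scaling by windows without a peak its ratio was 2.19, and all 7 passed. Under scaling by the median body ratio it was 1.79. Myom2 also began high, at 4.50-fold (4.21 to 4.80), and rose to 12.4-fold (11.8 to 13.05), a ratio of 2.76 (2.54 to 3.00). The Myom2 levels count the bins of this gene that hardly any unique read can reach, described below, and are lower for it.

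Neb and Myom1 started at the genome mean and rose alike. Neb had 577 and 2499 H3K36me3 reads, 1.04-fold and 7.37-fold, with a ratio of 7.06 (6.45 to 7.75). Myom1 had 262 and 1130 reads, 0.896-fold and 6.30-fold, with a ratio of 7.03 (6.14 to 8.08). Mybph went from 47 to 173 reads, 2.52-fold to 15.1-fold, with a ratio of 6.00 (4.33 to 8.47), but the last 2 kb of this gene overlap the 3′ end of Adora1 on the other strand, and ChIP reads have no strand of transcription. The myosin-binding protein C genes ended lowest again. Mybpc2 rose from 23 to 136 reads, 0.381-fold to 3.67-fold, with a ratio of 9.64 (6.17 to 15.7) whose interval overlaps those of Neb and Myom1, and Mybpc1 from 117 to 273 reads, 0.496-fold to 1.89-fold, with a ratio of 3.81 (3.05 to 4.77).

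In 20 equal bins from the 5′ to the 3′ end, the H3K36me3 of Ttn in myoblasts ran along the whole gene, from 3.55-fold in bin 2 to 10.1-fold in bin 20, and the authors' list has 146 myoblast H3K36me3 peaks over this gene. In myotubes every Ttn bin was higher, but only 5 of 20 by 2-fold, and the level climbed from 10.4-fold over the first 5 bins to 18.8-fold over the last 5, reaching 22.1-fold in bin 20. Neb and Myom1 were over 2-fold higher in each of their 20 bins, with a range of 2.93-fold to 10.0-fold along Neb and 2.76-fold to 11.9-fold along Myom1 in myotubes. Mybpc2 rose toward its 3′ end, from 1.24-fold over the first 5 bins to 4.86-fold over the last 5, and Mybph from 10.1-fold to 22.6-fold. Some low bins are those in which few reads of 34 bases can be placed uniquely. Bin 10 of Myom2 had no read in any of the 12 libraries, and 0.764% of its 34-base words occur once in the genome. For bin 9 of Myom2 the figure was 35.4%, and for bin 2 of Ttn, the lowest of this gene in myoblasts, 55.7%. Bins under 50% were left out of the ranges given here. Bins 11 and 12 of Ttn were also low, with 5.66-fold in bin 11 in myotubes, and there 90.0% and 91.8% of the words were unique.

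**Figure D4:**
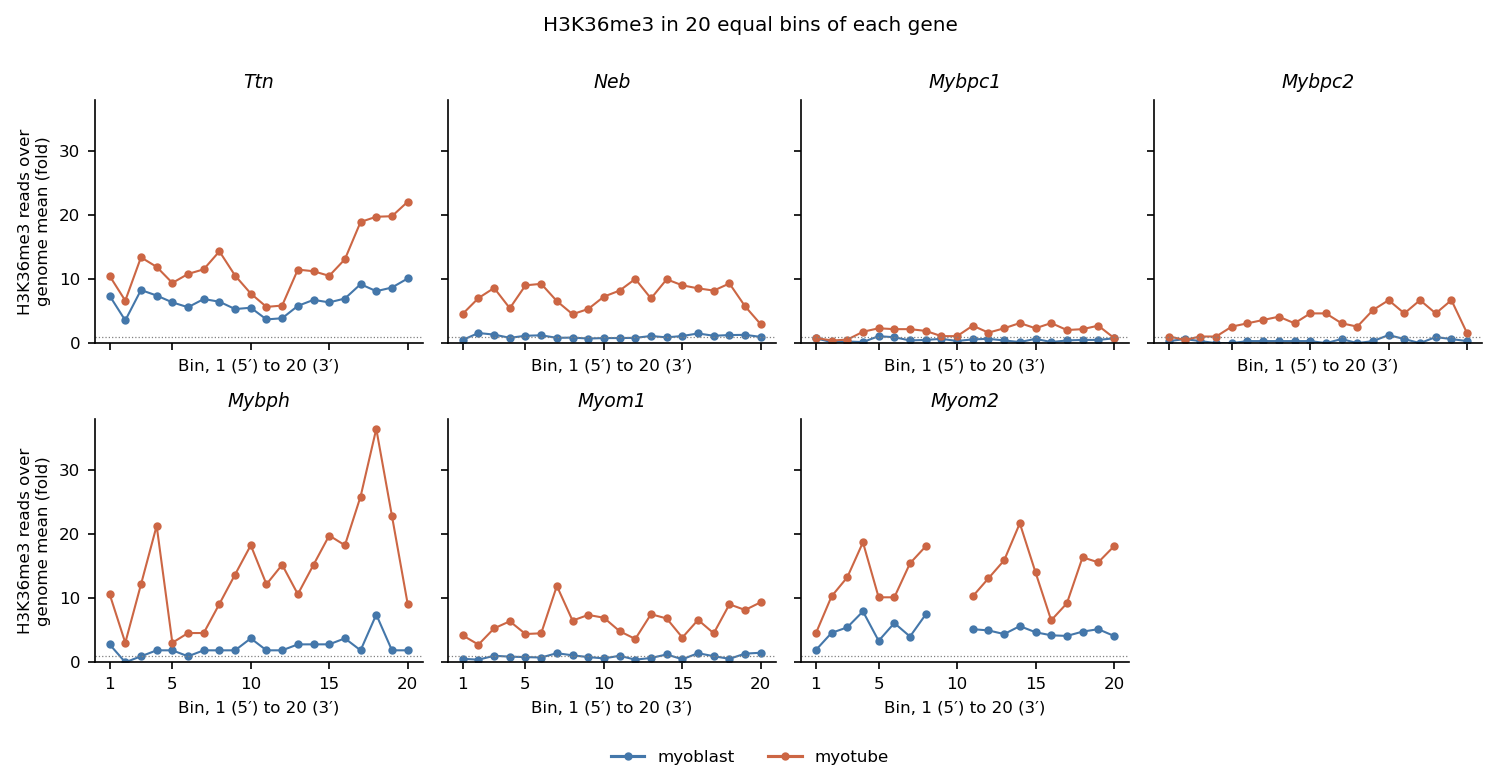
H3K36me3 as fold over the genome mean in 20 equal bins of each gene from the 5′ to the 3′ end, in myoblasts and myotubes, with a dotted line at 1 and without the Myom2 bins in which under 50% of 34-base words are unique. Ttn and Myom2 lie above the mean along their whole length in myoblasts, and Ttn climbs to 22.1-fold at its 3′ end in myotubes.

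The other marks also rose over some of these bodies. The bodies of Neb and Myom2 begin 1 kb from the 5′ end and so hold the whole promoter window of the start used, which gave 161 of the 506 myotube H3K4me3 reads of the Neb body and 151 of the 493 of the Myom2 body. Over Ttn, H3K4me2 went from 157 to 1359 reads (0.337-fold to 2.63-fold, ratio 7.81), H3K4me1 from 405 to 2162 (ratio 5.51), H3K27ac from 80 to 1038 (ratio 5.10) and H3K4me3 from 289 to 967 (ratio 2.81). Under scaling by windows without a peak, the Ttn H3K4me2 ratio of 7.81 became 4.48. Neb and Mybpc1 were called higher for the same 4 marks, with ratios of 3.38 and 2.10 for H3K4me3, 6.12 and 3.95 for H3K4me2, 4.68 and 3.57 for H3K4me1 and 6.50 and 4.67 for H3K27ac. Among all bodies tested, 6.28%, 20.7%, 11.9% and 13.2% were called higher for these marks in that order, against 5, 5, 3 and 5 of the 7 genes. Myom2 was among those called for H3K4me2 and H3K27ac, with ratios of 2.33 and 2.24 that became 1.33 and 1.94 under the same scaling. When reads inside the H3K4me3 peaks of either state were left out, 6 bodies had enough reads and none of them kept its H3K4me3 call. As the peaks left out are those of the same mark, this loss says little by itself. Ttn, Neb and Mybpc1 kept their calls of H3K4me2 and H3K27ac. Myom1 was the opposite case: its body moved by little in H3K4me3 (ratio 1.07), H3K4me2 (1.03), H3K4me1 (0.848) and H3K27ac (0.878) while its H3K36me3 rose 7.03-fold, although the H3K4me2 ratio became 0.587 under scaling by windows without a peak. The short body of Mybph lies wholly within its long H3K4me3 peak, and its H3K4me3 went from 2.72-fold to 34.2-fold and its H3K27ac from 8.72-fold to 54.4-fold.

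H3K27me3 was low over the 7 genes, at most 3.65-fold at any promoter and 3.01-fold over any body. At the promoters, only Mybpc1 had enough reads, 20 in myoblasts and 3 in myotubes, 3.65-fold (2.23 to 5.63) and 0.765-fold (0.158 to 2.24), and its ratio of 0.210 (0.0399 to 0.708) was called lower, as were 24.2% of all promoters tested. Mybpc2 went the same way, from 11 reads to 1, with too few reads to be called. These promoters, which had the least H3K4me3 in myotubes, held the most H3K27me3 reads in myoblasts, closely followed by Neb with 10. Over the bodies, Mybpc2 had the highest level in myoblasts, 3.01-fold (2.58 to 3.48), and in myotubes its 2.39-fold (1.95 to 2.90) overlapped the 2.28-fold of Ttn. Along Mybpc2, the first 5 bins went from 2.99-fold to 0.711-fold (47 and 8 reads), and the last 5 were at 2.35-fold and 2.49-fold (37 and 28 reads). Myom2 was the only body called higher, where 10.3% of all bodies tested were. It went from 169 to 288 reads, 0.823-fold to 1.96-fold, a ratio of 2.38 (1.97 to 2.90). Ttn came close with 950 and 1243 reads and a ratio of 1.83 (1.68 to 1.99). Myom2 and Ttn are also the genes with the most H3K36me3 in myoblasts. H3K27me3 was higher in myotubes in all 20 bins of Ttn and all 18 bins of Myom2 with enough unique sequence. The median H3K27me3 ratio over all bodies tested was 1.16, so bodies in general leaned the same way. Under scaling by the median body ratio, the ratios became 1.59 for Ttn and 2.07 for Myom2.

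At the promoters H3K36me3 was scarce. Only Mybph, with 7 and 18 reads, and Myom2, with 11 and 17, reached the read minimum. Both were called higher, with ratios of 4.19 (1.67 to 11.9) and 2.52 (1.11 to 5.95), against 9.46% of all promoters tested. For Myom2 this rests on the start used, which lies inside the gene. At its most upstream annotated start there were 5 and 4 reads, too few for a call, with a ratio of 1.30 (0.259 to 6.06).

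Inside the genes, the window of 1 kb with the most H3K27ac was found in each state, at least 5 kb downstream of the start. As the windows were chosen by their H3K27ac, these values are a description. In Myom2 the same window led in both states, 12 to 13 kb downstream (chr8:15072190-15073189), and it was strongly acetylated already in myoblasts, with 94 reads or 129-fold (105 to 158), against 260 reads or 141-fold (124 to 159) in myotubes, a ratio of 1.09 (0.856 to 1.39). The annotation puts it wholly in an exon of a retained-intron transcript and in no coding sequence, and a myoblast H3K4me3 peak of 863 bases with a score of 62.5 overlapped it. Its H3K4me1 went from 98 to 52 reads (38.7-fold to 21.2-fold) and its H3K4me2 from 73 to 42, with 10 and 16 H3K4me3 reads. The Myom2 start had 14 and 242 H3K27ac reads over 2 kb, so the start and this internal window of the same gene moved differently.

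In Myom1 the leading internal window was not the same in both states. In myoblasts the window of 40 to 41 kb downstream (chr17:71408908-71409907, intronic) led, and it fell from 19 to 5 H3K27ac reads (26.1-fold to 2.71-fold, ratio 0.104 with an interval of 0.0302 to 0.287), from 72 to 18 H3K4me1 reads (ratio 0.258) and from 28 to 3 H3K4me2 reads (ratio 0.0967). In myotubes the window of 20 to 21 kb downstream (chr17:71388908-71389907, intronic) led, with 14 reads in myoblasts and 57 in myotubes, 19.3-fold and 30.9-fold, a ratio of 1.60 (0.881 to 3.11) that includes 1. Over the whole body the sum went from 151 to 337 reads, a ratio of 0.878 (0.722 to 1.07). In Neb, a window 15 to 16 kb downstream (chr2:52174655-52175654, with 105 coding bases) rose from 7 to 75 reads, 9.63-fold to 40.6-fold, a ratio of 4.21 (1.95 to 10.8), and in Mybpc1 an intronic window 25 to 26 kb downstream (chr10:88041771-88042770) rose from 0 to 20 reads, 10.8-fold in myotubes (6.61 to 16.7). The start of Mybpc1 had 1.89-fold. Ttn had no internal window above 8.12-fold, and in Mybpc2 the leading windows held 3 reads. Mybph had room for only 2 such windows, with 1 read each in myoblasts and 28 and 30 in myotubes.

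**Figure D5:**
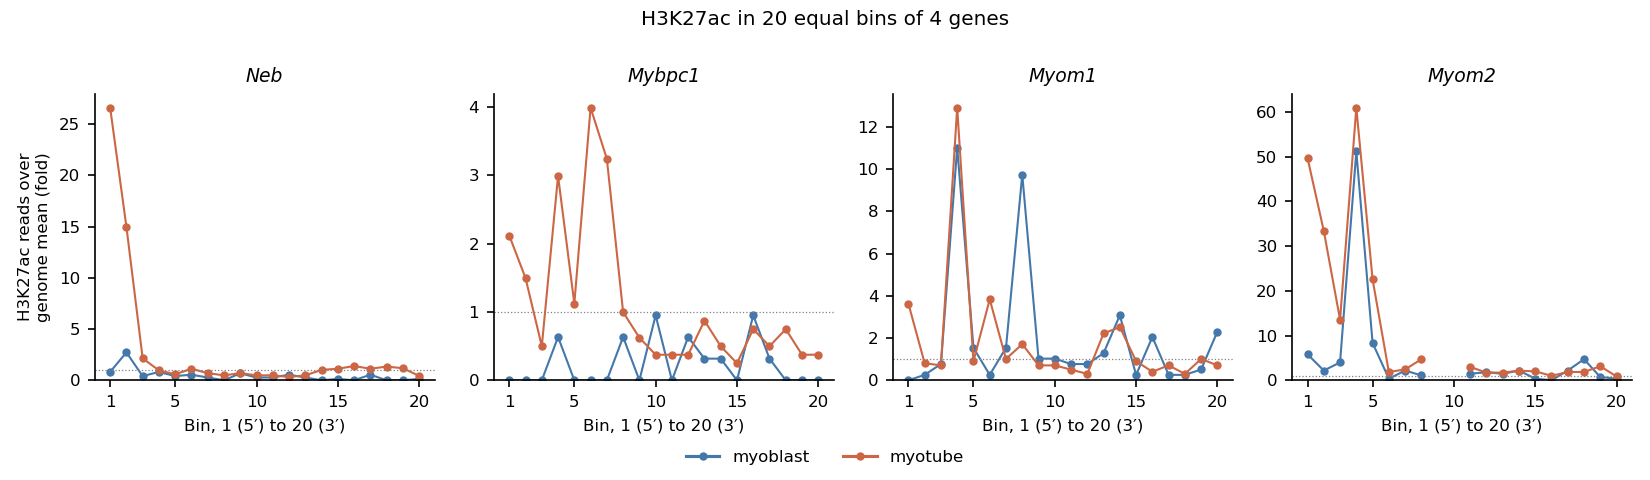
H3K27ac as fold over the genome mean in 20 equal bins of Neb, Mybpc1, Myom1 and Myom2 from the 5′ to the 3′ end, in myoblasts and myotubes, with a separate linear axis for each gene starting at 0. Bin 4 of Myom2 is high in both states, and bin 8 of Myom1 stands out in myoblasts and not in myotubes. The Myom2 bins without enough unique sequence are left out.

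Relatives and partners of the 7 proteins carried more H3K4me3 in myotubes in most cases. Of 12 genes of the same families, 9 had enough H3K4me3 reads, and of these 7 were higher and none lower, with a median ratio of 13.9 where all promoters tested had 0.869. The highest ratio was that of Lmod2, a leiomodin of the thin filament, with 1 and 159 reads (ratio 134, interval 23.7 to 5315). The lowest were those of Nebl and Lasp1, nebulin relatives that are used outside skeletal muscle, at 1.16 (0.539 to 2.59) and 0.743 (0.582 to 0.948). Mybpc3, the cardiac form of myosin-binding protein C and named here after its values were seen, held 2 and 3 H3K4me3 reads. Of 18 partners that bind or fold these proteins or sit beside them in the sarcomere, 17 had enough reads, 14 were higher and none lower, with a median ratio of 8.32. The share called higher over all promoters tested was 3.86%, and here too genes could reach the read minimum through the myotube library alone. Tcap, the titin cap, had 1 and 51 reads and Kbtbd10, a nebulin-binding Kelch protein, 3 and 133 reads (ratio 37.3, interval 12.5 to 183), whereas Fhl2 and Fhl1, LIM proteins that bind titin, had ratios of 0.561 (0.378 to 0.826) and 0.505 (0.279 to 0.891).

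The promoters most like each gene were sought by the mean absolute difference of log2 fold over the 12 libraries, with 1 read added to each count. Myog, the gene of myogenin, was nearest to Ttn at 0.49 on the log2 scale, and Tnnt1, the slow skeletal troponin T, came next at 0.61. Nearest to Myom2 were Trim72, a muscle membrane repair gene, at 0.39 and Tnnt1 at 0.40, and nearest to Neb were Casq2, a calsequestrin, at 0.46 and Art5 at 0.61. For Mybph they were Synpo2l at 0.51 and Dusp27 at 0.53. The nearest promoters to the other three were Rnase6 and Serpinb7 for Mybpc1, Pgbd5 and Tnfsf15 for Mybpc2 and Yipf7 and Trp63 for Myom1, at 0.46 to 0.54. Among the 7 themselves, Ttn and Myom2 were the closest pair at 0.70 and Mybpc1 and Mybph the farthest at 3.06.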

How the data were processed

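Chromatin immunoprecipitation reads of 6 marks in C2C12 myoblasts and myotubes were analysed, 1 library each. Per the paper's methods, the authors aligned the myoblast reads to mm9 with Mosaik, kept unique alignments and called peaks with MACS. The labels give mm9 for the myotube libraries too, whose aligner is not given in the sources used here, nor are the MACS version, settings and control. The listed alignments are 34 bases long. The deposited read files, marked as merged without saying from how many runs, list 1 alignment per line, each a count of 1, and the deposited peak files give a score per peak. The genome was NCBIM37 with the GENCODE M1 annotation.

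Reads were extended to 150 bases and counted by fragment midpoint on chromosomes 1 to 19 and X, which hold 2555806925 known bases. For each gene the annotated start with the most H3K4me3 reads in both libraries together was used. Levels have exact Poisson intervals and ratios exact conditional binomial intervals (scipy 1.17.1, Python 3.11.15). A count of 0 was set to 3 reads for a ratio, and no ratio was formed when both counts were 3 or less. The ratios, calls and intervals were tested on promoter counts simulated with counting error only. The counting of reads was not part of that test. No test was run, as each group is 1 library. All protein-coding promoters and bodies were processed alike. The 7 genes and all lists were chosen with earlier results of these data known, and the windows of highest H3K27ac were added after the bins were seen. Named relatives and partners are the 2 highest and 2 lowest H3K4me3 ratios of each list, except 1 gene that is not reported here. Alternatives changed duplicates, extension, window, start, scaling, minimum, fold and depth.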

Additional observations from a re-analysis of the deposited data

How the results depend on the processing

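No paired analysis was possible because each mark and state has 1 library, so no replicate could be left out and no spread between cultures is known. The promoter counts of H3K4me3 (6 genes higher, 4 to 7 under 15 alternatives) and H3K27ac (6, 5 to 7) and the body count of H3K36me3 (6, 5 to 7 under 12, with Ttn added under scaling by windows without a peak or past 1.5-fold) stayed within 1.5 times, and of 641 single ratios recomputed none changed direction for a called value, 600 staying within their interval. H3K4me1 was the least stable. Its 2 higher calls became 1 with 500 bases on each side (Mybpc2), with 5 reads added and past 3-fold, 4 at the most upstream start (Neb, Mybpc1, Myom1, Myom2) and 0 with a minimum of 50 reads. Its 1 lower call became 2 (with Myom2) with extension to 250 bases, 500 bases on each side, scaling by windows without a peak, a limit of 1.5-fold or thinning of the deeper library, and 0 with 2 kb on each side or past 3-fold. The 2 H3K36me3 promoter calls became 1 at the most upstream start, under median scaling or past 3-fold, and 0 with 500 bases on each side or a minimum of 50 reads, and a minimum of 10 reads added 1 lower call, Ttn. The 1 H3K27me3 promoter call became 2 (with Mybpc2) with 2 kb on each side or a minimum of 10 reads, and 0 with 500 bases, a minimum of 50 reads or thinning, and a minimum of 10 reads added 1 higher call, Ttn. Over bodies, the 5 H3K4me3 calls became 3 past 3-fold and 0 without reads in H3K4me3 peaks, where those of H3K4me2 and H3K27ac became 3, and the 1 H3K27me3 call became 2 past 1.5-fold and 0 past 3-fold. Set against the 200 kb around each start instead of the genome mean, the median level of the 7 promoters became 17.4 for H3K4me3, 8.74 for H3K4me2, 1.68 for H3K4me1 and 9.25 for H3K27ac in myotubes, and 2.32 for H3K4me2 and 0.312 for H3K36me3 in myoblasts. With peaks scoring at least 100, the genes with a peak became 0 for H3K4me3 and 2 for H3K4me2 in myoblasts and 1 for H3K4me1 in myotubes, and when the peak had to cover the start, 0 for H3K4me1 and 1 for H3K36me3 in myotubes. With the myoblast lists exchanged, 3 genes had an H3K27ac peak and 0 an H3K27me3 peak. Scaling by windows without a peak lowered H3K4me2 ratios by 0.80 on the log2 scale, and scaling by the median promoter raised those of H3K27ac by 0.84. At under 20 reads per promoter, H3K36me3 and H3K27me3 differences at most starts were not detectable at this depth.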
